A study of Mus musculus with 33 samples.

Results

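Chil3, Retnla, Mrc1 and Stat6, 4 genes of the alternative activation programme, were followed in 33 libraries of donor monocytes and primary monocytes. They were chosen by name, Chil3 also by its older symbol Chi3l3, and are 4 of 67 genes on an nCounter panel, 57 of which had a value in every library. Each library of recovered cells held 100 donor cells, sorted 1 day after monocytes enriched from the BM of C57BL/6 WT mice were injected into C57BL/6 CCR2-/- recipients. These lack the receptor that monocytes use to leave the BM, and the study states that without it monocytes are fewer in blood and peripheral tissues. Manipulated recipients had the small intestine taken out and handled under ketamine and xylazine 1 day before the transfer and then received Novalgin in the drinking water, whereas non-manipulated recipients had no surgery, so that the handling of the gut, anaesthesia and analgesic cannot be told apart in these libraries. The study reports that sham surgery, a laparotomy without handling of the gut, caused no gut inflammation, but no library here is from sham-operated mice. In non-manipulated recipients there were 4 libraries of small intestine, 3 of liver, 3 of spleen and 3 of BM. In manipulated recipients the numbers were 5, 2, 3 and 3 in the same order. Another 4 came from the small intestine of non-manipulated recipients whose donors had been manipulated, and 3 were primary BM monocytes never transferred, 2 of non-manipulated and 1 of manipulated mice. All donors were WT and all recipients CCR2-/-. The age of the animals is not given in the sources used here. Cells of the small intestine and liver were freed by collagenase and those of spleen and BM without it, so that organ and isolation cannot be told apart. Libraries are numbered by the mouse number of their label, and the labels do not say whether a number marks the same animal in different organs. Libraries 3 and 4 of manipulated donors are numbered by their titles, but the column names of both give mouse 3, so that this group may rest on 3 mice. The study describes the donor cells of the small intestine as CD11b+ CD64+ with low to intermediate CD11c, a gate set to leave out intestinal dendritic cells, and for the other organs the gate is not given in the sources used here.

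In alternatively activated macrophages, interleukin-4 or interleukin-13 binds a receptor that leads to phosphorylation of STAT6, and STAT6 dimers enter the nucleus and bind DNA. Retnla, which encodes the secreted protein RELM-alpha, Chil3, which encodes the chitinase-like protein Ym1, and Mrc1, which encodes the mannose receptor CD206, are classical mouse readouts of this pathway. They are not equivalent in monocytes. Chil3 is also abundant in Ly6C-high monocytes of the BM without such stimulation, Mrc1 is a receptor of mature tissue macrophages, and Stat6 is transcribed broadly in leukocytes, its activity being set at the protein.

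The promoters of both secreted readouts are shown because they hold the letters that STAT dimers read. The windows come from RefSeq on build GRCm38.p6 and run from 250 bases before to 50 bases after the annotated start. Capitals mark matches to TTCNNNNGAA, the palindrome with 4 inner bases that STAT6 prefers, to TTCNNNGAA, the palindrome with 3 inner bases that other STAT proteins prefer, and to TATAAA, the TATA box. Both strands were searched, and the first and second motif read the same on both strands and do not overlap each other in these windows.
Retnla, chr16:48842359-48842658, plus strand: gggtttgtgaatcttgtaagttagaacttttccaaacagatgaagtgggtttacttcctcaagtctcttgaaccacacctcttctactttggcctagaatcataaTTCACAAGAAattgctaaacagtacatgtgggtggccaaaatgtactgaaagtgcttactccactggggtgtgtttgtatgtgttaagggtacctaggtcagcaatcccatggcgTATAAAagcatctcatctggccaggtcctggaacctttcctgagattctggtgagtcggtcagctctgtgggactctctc
Chil3, chr3:106167515-106167814, minus strand: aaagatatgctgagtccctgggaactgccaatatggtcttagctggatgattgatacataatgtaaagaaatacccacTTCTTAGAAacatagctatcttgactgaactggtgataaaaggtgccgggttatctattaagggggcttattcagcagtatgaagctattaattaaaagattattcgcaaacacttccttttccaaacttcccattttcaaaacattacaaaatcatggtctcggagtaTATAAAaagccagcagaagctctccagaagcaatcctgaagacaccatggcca
The Retnla window held 1 match with 4 inner bases, which begins 145 bases before the start, and 1 TATAAA beginning 30 bases before it. The Chil3 window held 1 match with 3 inner bases, beginning 172 bases before the start, and 1 TATAAA beginning 3 bases before it. The windows of Mrc1 (chr2:14229164-14229463) and Stat6 (chr10:127642736-127643035), both on the plus strand, held none of the 3. Of 32851 promoter windows of this length, 6.95% held TTCNNNNGAA, 8.3% TTCNNNGAA and 13.6% TATAAA. A match is a description of the letters and not a binding site.

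Levels are barcode counts scaled by the geometric mean of Actb, Gapdh and Rpl19 and given as log2(normalised count + 1). Background was not subtracted, so that a log2 difference of counts near it can be understated. Unlike scaling factors can also create a difference between such counts. Retnla, for example, held 57 counts in libraries 3 and 5 of the manipulated small intestine, but levels of 6.62 and 5.78. Summed counts of the libraries ran from 653885 to 1626501. The background of a library, the mean plus 2 SD of its 5 negative control probes, lay between 16.7 and 65.2 counts, or 4.48 and 6.43 on the log2 scale. Libraries 3 and 4 of the manipulated small intestine stood apart in their positive control probes (geometric means of 267 and 247 counts against 386 to 729 in the others) and were the most alike of 39 pairs of libraries of 1 group. They still differed beyond counting noise (chi-square of 606 per degree of freedom, the lowest of the 39 pairs). As the cDNA was amplified before counting, this cannot show that the 2 libraries are separate samples. Their titles name separate mice and they were kept as 2 libraries, and differences of the 4 genes that rest on them are given with and without them. The counts are of cDNA amplified before counting, and each gene has its own primers and probes, so that an order of genes is one of counts and not of transcripts. In pools of sorted cells, fewer cells with a transcript and less transcript per cell cannot be told apart. Of 8 Ly6C-high monocyte markers on the list used, 4 were measured, Ly6c1, Ccr2 and Cd14 among them, and all 4 were above background in every library, and of the dendritic cell markers Itgax, Ccr7 and Ccl22 were measured. Markers of neutrophils, eosinophils, lymphocytes, epithelium and stroma were not analysed here, so that such cells cannot be assessed.

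The 4 genes lay on different levels. Chil3 was above background in 33 of 33 libraries with a median of 85132 counts (10626 to 287334), the third highest median of 57 genes, and was the most counted panel gene in 13 libraries. Stat6 was above background in 33 of 33 with a median of 11724 counts (4769 to 22713), rank 21. Mrc1 exceeded background in all 33 libraries but with a median of 82 counts (42 to 428), rank 54, and exceeded 2 times the background in 18 of them. Retnla was the lowest of the 57 genes with a median of 45 counts (24 to 8664). It was above background in 24 libraries, above 2 times the background in 3, and in 5 it did not exceed the brightest single negative probe. The plot of levels by group shows these ranges next to the background.

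**Figure D1:**
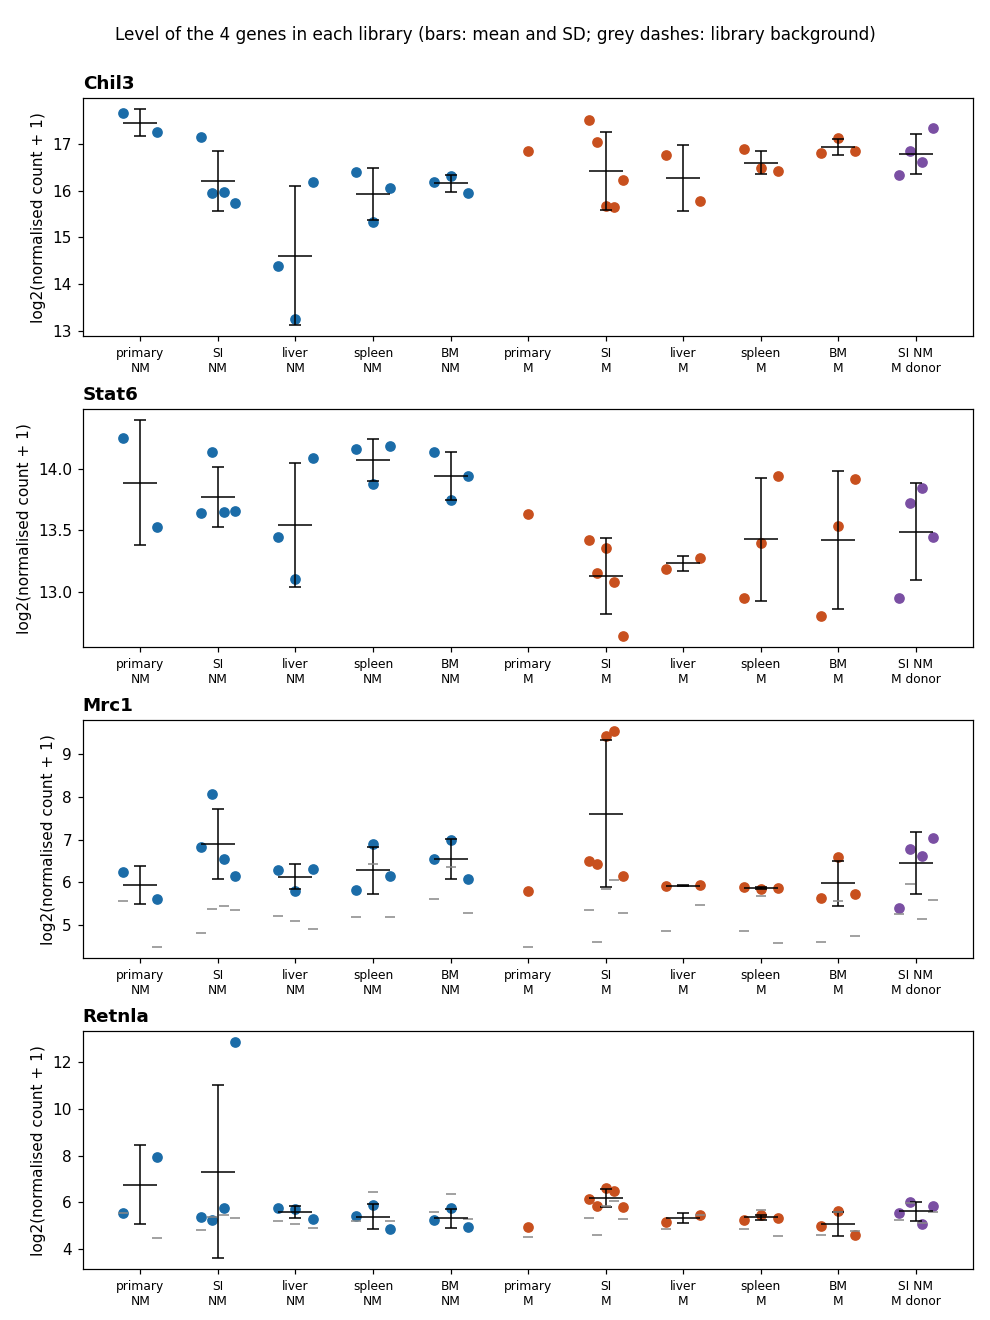
Level of each gene as log2(normalised count + 1) on the y axis in the 11 groups on the x axis (SI, small intestine; NM, non-manipulated; M, manipulated; primary, BM monocytes before transfer), 1 point a library, with the mean and SD of groups of 2 or more libraries and, for Mrc1 and Retnla, the background of each library as a grey dash. Chil3 and Stat6 lay far above background everywhere, whereas Mrc1 stood furthest above it in 2 libraries of the manipulated small intestine and Retnla in library 4 of the non-manipulated small intestine.

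The spread between libraries of 1 group also differed. The pooled within-group SD of Stat6 was 0.37 on the log2 scale, the 4th lowest of 57 genes, against a median SD of 0.85 over the panel. It was 0.69 for Chil3 (rank 15 from the lowest), 0.89 for Mrc1 (rank 33) and 1.45 for Retnla (rank 47). Over all 33 libraries Stat6 ran from 12.64 to 14.25, whereas Retnla reached 12.85 from a median of 5.53.

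**Figure D2:**
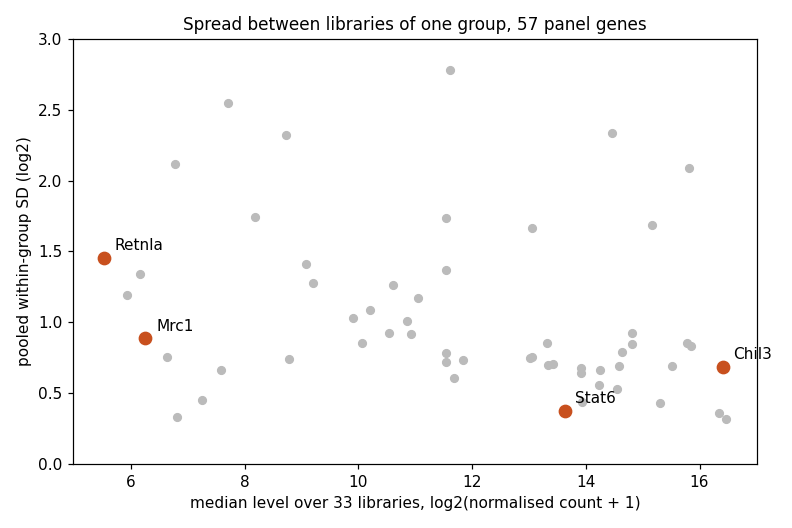
Pooled within-group SD of the log2 level (y axis) against the median log2 level over 33 libraries (x axis), 1 point for each of the 57 panel genes, with the 4 genes in colour. Stat6 combined a median of 13.63 with an SD of 0.37, and Retnla the lowest median, 5.53, with an SD of 1.45.

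Retnla was a gene of single libraries. In the non-manipulated small intestine it gave 39, 38, 53 and 8664 counts in libraries 1 to 4, against backgrounds of 26.3, 41.4, 42.7 and 46.7. Library 4 alone was high, at 12.85 on the log2 scale or 163 times the median of the other 32 libraries, and Retnla ranked 27th of 57 genes there. The 2 primary libraries of non-manipulated mice gave 54 and 453 counts against backgrounds of 54.0 and 39.5, so that library 2 was the second highest of the study. In the manipulated small intestine, libraries 1 to 5 gave 67, 41, 57, 52 and 57 counts, all above their backgrounds of 16.7 to 40.1 and only in library 2 above 2 times the background. The high normalised levels of libraries 3 and 4 there (6.62 and 6.50) went with scaling factors of 0.587 and 0.579. All other libraries held 24 to 58 counts. In library 4 of the non-manipulated small intestine Retnla was the only panel gene with its highest level of the study. Chil3 (15.74) and Mrc1 (6.14) were the lowest of their group in that library, and its summed monocyte, macrophage and dendritic cell markers ranked 26th, 15th and 5th of 33.

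The group comparisons of Retnla rested on that library. Between manipulated and non-manipulated small intestine the log2 difference was -1.13 ± 0.93 (SE, 5 against 4 libraries, limma adjusted p = 0.35), and without library 4 it turned to 0.71 (adjusted p = 0.18). Between manipulated and non-manipulated donors in the non-manipulated small intestine it was -1.70 ± 0.98 (4 against 4 libraries, limma adjusted p = 0.62), and without library 4 it was 0.15 (adjusted p = 0.99). Within libraries deposited without a multiplier, which leave out library 4, the difference between manipulated and non-manipulated small intestine was 0.68 (2 against 2), and within those deposited with one it was -3.0 (3 against 2).

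**Figure D3:**
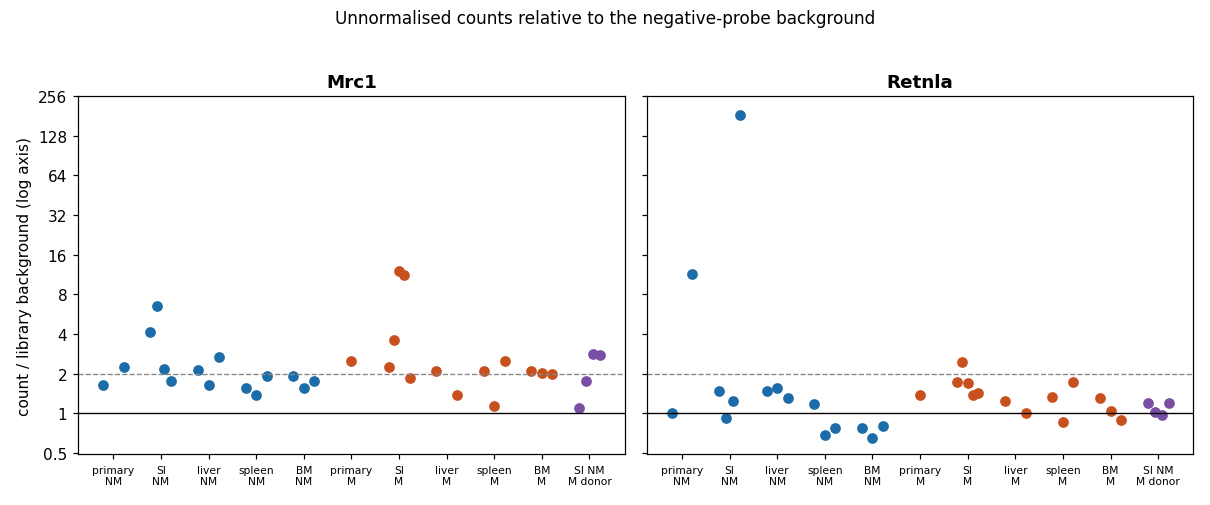
Unnormalised counts of Mrc1 and Retnla divided by the background of the same library (y axis, log scale) in the 11 groups (x axis), 1 point a library; the solid line marks the background and the dashed line 2 times the background. Retnla exceeded the dashed line in 3 libraries and Mrc1 in 18.

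Mrc1, the endocytic mannose receptor, was highest in 2 libraries of the manipulated small intestine. Libraries 1 to 5 of that group gave 87, 61, 404, 428 and 74 counts, or 6.50, 6.42, 9.43, 9.53 and 6.15 on the log2 scale. Libraries 3 and 4 were high and libraries 1, 2 and 5 lay within the range of the non-manipulated small intestine (6.83, 8.06, 6.56 and 6.14). The third highest library of the study was library 2 of the non-manipulated small intestine, with 270 counts. Liver, spleen and BM held 56 to 93 counts in both states of the recipient, primary monocytes 86 to 89, and the small intestine after transfer from manipulated donors 42 to 82. Between manipulated and non-manipulated small intestine Mrc1 differed by 0.71 ± 0.59 (5 against 4 libraries, limma adjusted p = 0.35), and by -0.54 without libraries 3 and 4 (adjusted p = 0.30). Within the libraries deposited without a multiplier the difference was -0.98 (2 against 2), and within those with one, which hold libraries 3 and 4, it was 2.02 (3 against 2), so that the direction did not hold within both.

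Among manipulated recipients Mrc1 was called higher in the small intestine than in spleen and BM. The difference from spleen (5.89, 5.85 and 5.87 in libraries 1 to 3) was 1.74 ± 0.64, 3.34-fold (5 against 3 libraries, limma adjusted p = 0.038). After scaling all 5 libraries of the small intestine lay above all 3 of spleen, a separation not counted over the 57 genes. Before scaling, libraries 1, 2 and 5 of the small intestine (87, 61 and 74 counts) overlapped with spleen (91, 56 and 78 counts). The difference from BM (5.64, 6.58 and 5.72) was 1.63 ± 0.64, 3.09-fold (5 against 3, adjusted p = 0.049), with overlapping ranges. The difference from liver (5.92 and 5.93) was 1.68 ± 0.73 (5 against 2, adjusted p = 0.21), and 0.43 without libraries 3 and 4 (adjusted p = 0.66). In these comparisons 31.6% of the 57 genes were called against spleen, 35.1% against BM and 8.77% against liver, so that a call was common. Mrc1 passed in 12 of 28 alternatives against spleen and in 10 of 28 against BM, among them filter alternatives that kept all 57 genes and repeat the reported fit. It did not pass with TMM factors, DESeq2 size factors, total counts or the replicate block. Both calls ended without library 3 of the small intestine (adjusted p = 0.12 for spleen and 0.16 for BM) or library 4 (0.12 and 0.17), and without any single library of spleen (0.088 to 0.098) or of BM (0.056 to 0.16). Without libraries 3 and 4 together the differences were 0.49 (adjusted p = 0.49) and 0.38 (adjusted p = 0.57). Within libraries without a multiplier they were 0.59 and 0.74 (2 against 1 for both), and within those with one 2.50 and 2.26 (3 against 2 for both).

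Other values of those libraries moved with Mrc1. Arg1, the arginase of alternatively activated macrophages, had its highest levels of the study in libraries 3 and 4 of the manipulated small intestine (17.94 and 17.22, against 14.01, 12.80 and 12.50 in libraries 1, 2 and 5), as did the neutrophil chemoattractant Cxcl1 (12.66 and 12.12). The monocyte marker Ly6c1 was low in them (9.53 and 9.70, against 15.82, 13.64 and 15.02 in libraries 1, 2 and 5). Ccr2, another of the 4 measured monocyte markers, was higher in them (15.53 and 15.38, against 14.40, 12.55 and 12.93). The summed level of these 4 markers was 184146 and 160174 normalised counts, against 229020, 210787 and 201795 in libraries 1, 2 and 5. The summed level of the 6 measured mature macrophage markers, Adgre1, Cd68, Csf1r, Cx3cr1, Siglec1 and Fcgr1, was 85554 and 92445 normalised counts in libraries 3 and 4 and 28276 to 59352 in the other 3 of the group, but 73541 to 111255 in the non-manipulated small intestine. All 6 were above background in each of them. Timd4, Marco and Mertk were not analysed here. The part of these values, and of the low positive controls, in the Mrc1 level was not tested.

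Chil3 had its highest group mean in primary monocytes of non-manipulated mice. The 2 primary libraries of non-manipulated mice held 17.66 and 17.25 on the log2 scale, above every library of non-manipulated small intestine (17.15, 15.95, 15.97 and 15.74), liver (14.38, 13.25 and 16.19), spleen (16.41, 15.32 and 16.05) and BM (16.19, 16.32 and 15.96). Liver libraries 1 and 2 were the lowest of the study, while liver library 3 lay among those of the other organs. Chil3 fell in liver by 2.84 ± 0.63, 7.17-fold (3 against 2 libraries, limma adjusted p = 0.0021), where 12.3% of the 57 genes were called. The other organs gave -1.25 ± 0.60 in the small intestine (4 against 2, adjusted p = 0.17), -1.52 ± 0.63 in spleen (3 against 2, adjusted p = 0.20) and -1.29 ± 0.63 in BM (3 against 2, adjusted p = 0.31), with none of the 4 genes called and 8.77%, 1.75% and 1.75% of the 57 genes called. The median difference of all 57 genes in these comparisons was positive, 0.94 in liver, 1.00 in small intestine, 0.42 in spleen and 0.37 in BM, and Chil3 was lower in each organ under all 24 or 25 alternatives tried for it.

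The call in liver held without each of the 5 libraries in turn (-3.63 to -2.17, adjusted p up to 0.028), without liver library 3 at its largest. It passed in 21 of 24 alternatives, among them filter alternatives that kept all 57 genes and repeat the reported fit. It ended where only the 5 compared libraries set the spread (adjusted p = 0.11) and with the test of the methods (adjusted p = 0.33). Within the libraries deposited with a multiplier, 1 of liver against 2 primary, it was -1.26, and without a multiplier there was no primary library. In the same kind of libraries the small intestine gave -1.60, spleen -1.59 and BM -1.20 (2 against 2 each). The summed monocyte markers of liver libraries 1 to 3 were 169312, 173422 and 199548 normalised counts, between the 257500 and 129683 of the primary libraries. The summed dendritic cell markers were 26612, 5046 and 8145 against 2523 and 2054, liver library 1 holding the highest sum of the study, with all 3 markers above background. The part of the dendritic cell markers in the Chil3 level was not tested. Between the organs of non-manipulated recipients Chil3 was 1.59 ± 0.53 higher in small intestine than in liver (4 against 3, adjusted p = 0.34), 1.32 ± 0.57 lower in liver than in spleen (3 against 3, adjusted p = 0.20) and 1.55 ± 0.57 lower in liver than in BM (3 against 3, adjusted p = 0.061). None was called, and 0%, 7.02% and 15.8% of the 57 genes were. In the first of these comparisons 2 genes had an unadjusted p under 0.05, Chil3 among them, edgeR called 1 gene and DESeq2 2. Without liver library 3, whose level overlapped with all other organs, the 3 differences passed the threshold (adjusted p = 0.0053, 0.0071 and 0.0020). Liver library 3 was also the only one of its group deposited with a multiplier. Small intestine minus liver was 2.73 within libraries without a multiplier (2 against 2) and -0.33 within those with one (2 against 1). Liver minus spleen was -2.24 (2 against 1) and 0.32 (1 against 2), and liver minus BM -2.14 (2 against 1) and -0.07 (1 against 2), so that the lower liver level rested on libraries 1 and 2.

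After manipulation Chil3 was higher in each organ on average, without a call. In liver the 2 manipulated libraries held 16.77 and 15.77, which overlapped with library 3 of the non-manipulated group only, and the difference was 1.66 ± 0.63, 3.17-fold (2 against 3, limma adjusted p = 0.28, unadjusted p = 0.015). It passed without liver library 3 of the non-manipulated group (2.45, adjusted p = 0.019), and it was 2.95 within libraries without a multiplier (1 against 2) and -0.42 within those with one (1 against 1). In spleen (16.89, 16.48 and 16.42) and BM (16.81, 17.12 and 16.84) all manipulated libraries lay above all non-manipulated ones, with differences of 0.67 ± 0.57 (3 against 3, adjusted p = 0.65) and 0.77 ± 0.57 (3 against 3, adjusted p = 0.57). How many of the 57 genes were separated in this way was not counted. Within libraries without and with a multiplier the difference was 0.37 and 0.82 in spleen and 0.88 and 0.71 in BM. In the small intestine (17.50, 17.04, 15.67, 15.65 and 16.22) the groups overlapped widely and the difference was 0.21 ± 0.47 (5 against 4, adjusted p = 0.71, 95% interval -0.75 to 1.17), turning to -0.058 without library 1 of the manipulated group. It was 0.72 without libraries 3 and 4 (adjusted p = 0.25) and 0.75 on the series matrix values (adjusted p = 0.24). Of the 57 genes, 33.3% were called in small intestine, 0% in liver, 0% in spleen and 1.75% in BM, and none of the 4 genes was among them. At an unadjusted p under 0.05 limma gave 6 genes in liver, Chil3 among them, and 6 in spleen, none of the 4. DESeq2 called 2 genes in each of these organs and edgeR 0.

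The manipulated primary library held 16.84, below both non-manipulated ones, and as 1 library it was not tested. After transfer from manipulated donors the small intestine held 16.34, 16.85, 16.62 and 17.35, within and above the range from non-manipulated donors (0.59 ± 0.49, 4 against 4, limma adjusted p = 0.77; 0% of the 57 genes called by limma, 5 genes at an unadjusted p under 0.05, 1 called by edgeR and 3 by DESeq2). In the manipulated small intestine Chil3 was 1.04 ± 0.58 below non-manipulated primary monocytes (5 against 2, adjusted p = 0.16), with an overlap through library 1, and 0.53 below without libraries 3 and 4 (adjusted p = 0.52). By mean level the order of groups ran from primary non-manipulated (17.45 ± 0.29, SD) through manipulated BM (16.93 ± 0.17) and spleen (16.60 ± 0.25) to non-manipulated BM (16.16 ± 0.18), spleen (15.93 ± 0.55) and liver (14.61 ± 1.48), with the groups not named here in between. Among neighbours in the full order of 11 groups, only primary non-manipulated monocytes and manipulated BM had ranges that did not overlap. Manipulated spleen (16.42 to 16.89) and non-manipulated BM (15.96 to 16.32), which are not neighbours, did not overlap either.

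Stat6, the transcription factor, had the narrowest range of the 4 genes. Libraries 1 to 4 of the non-manipulated small intestine held 13.64, 14.13, 13.65 and 13.66 and libraries 1 to 5 of the manipulated small intestine 13.42, 13.15, 13.35, 13.08 and 12.64, so that every manipulated library lay below every non-manipulated one, a separation not counted over the 57 genes. The difference was -0.64 ± 0.29, or 1.56-fold (5 against 4, 95% interval -1.24 to -0.04, limma adjusted p = 0.094, unadjusted p = 0.038), in a comparison in which 33.3% of the 57 genes were called. It was -0.60 within libraries deposited without a multiplier (2 against 2) and -0.63 within those deposited with one (3 against 2). The size depended on the scaling, from -0.10 on the series matrix values (adjusted p = 0.85) to -0.86 on total counts (adjusted p = 0.049), and it passed without Actb in the house-keeping mean (-0.85, adjusted p = 0.039). In the same comparison 1 of 4 monocyte markers, Ccr2, fell by 2.24 ± 0.56, 2 of 6 macrophage markers, Cx3cr1 and Csf1r, fell by 3.86 ± 0.91 and 1.35 ± 0.47, and 1 of 3 dendritic cell markers, Itgax, fell by 3.46 ± 0.82. Their part in the Stat6 level was not tested.

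Stat6 was also lower on average in the other manipulated organs, where ranges overlapped. In spleen (14.16, 13.88 and 14.18 non-manipulated, 12.94, 13.39 and 13.94 manipulated) it differed by -0.65 ± 0.36 (3 against 3, limma adjusted p = 0.41). In BM (14.13, 13.74 and 13.94 against 12.80, 13.53 and 13.91) it differed by -0.52 ± 0.36 (3 against 3, adjusted p = 0.53), and in liver (13.44, 13.10 and 14.09 against 13.19 and 13.27) by -0.31 ± 0.40 (2 against 3, adjusted p = 0.99). The median difference of all 57 genes was also negative in spleen (-0.28) and BM (-0.37), and 0.06 in liver. A lower level there was thus not particular to Stat6. Same-numbered libraries deviated together in spleen and BM, although manipulated and non-manipulated recipients are different mice, so that a shared number is not a known pair. In both organs the scaled level of Stat6 was lower and that of Chil3 higher in the manipulated library of 3 of 3 such pairs, a pattern not counted over the 57 genes. For Stat6 in BM it depended on the scaling. Before scaling, libraries 1 to 3 of BM held 18036, 7993 and 15535 Stat6 counts non-manipulated and 10579, 10763 and 20528 manipulated. Unscaled counts of Stat6 thus rose in pairs 2 and 3 and fell in pair 1. With the replicate block the limma adjusted p of Stat6 was 0.37 in spleen and 0.44 in BM, and 0 of the 57 genes, Chil3 included, were called in either organ. The change in the small intestine minus the mean change of the other 3 organs was -0.15 ± 0.36 (95% interval -0.89 to 0.60, adjusted p = 0.95). The same difference of changes was -0.82 ± 0.58 for Chil3 and 1.10 ± 0.73 for Mrc1 (adjusted p = 0.66 for both), or -0.31 and -0.15 without libraries 3 and 4 of the manipulated small intestine, and none of the 4 genes was called, against 14% of the 57.

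Monocytes of manipulated donors in the non-manipulated small intestine held Stat6 at 12.95, 13.72, 13.84 and 13.45, overlapping with both other groups of this organ (-0.28 ± 0.31 against non-manipulated donors, adjusted p = 0.88). Manipulated recipients lay -0.36 ± 0.29 from them (5 against 4, adjusted p = 0.48). Against these donors Mrc1 was 1.15 ± 0.59 higher in manipulated recipients (adjusted p = 0.22) and -0.10 without libraries 3 and 4. No gene of the 4 was called in this comparison, in which 8.77% of the 57 were, or in it and that of donors without library 3 or library 4 of manipulated donors. Before transfer Stat6 held 14.25 and 13.53, and entry into the manipulated small intestine gave -0.76 ± 0.36 (5 against 2, adjusted p = 0.097) with no overlap, and 1.67 ± 0.73 for Mrc1 (adjusted p = 0.068) with overlap. None of the 4 genes was called there, against 35.1% of the 57. With 1 library left out, the Mrc1 difference there ran from 1.19 to 2.03 (adjusted p = 0.30 to 0.027), passing without library 1, 2 or 5 of the manipulated small intestine. Without libraries 3 and 4 together it was 0.42 (adjusted p = 0.54).

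**Figure D4:**
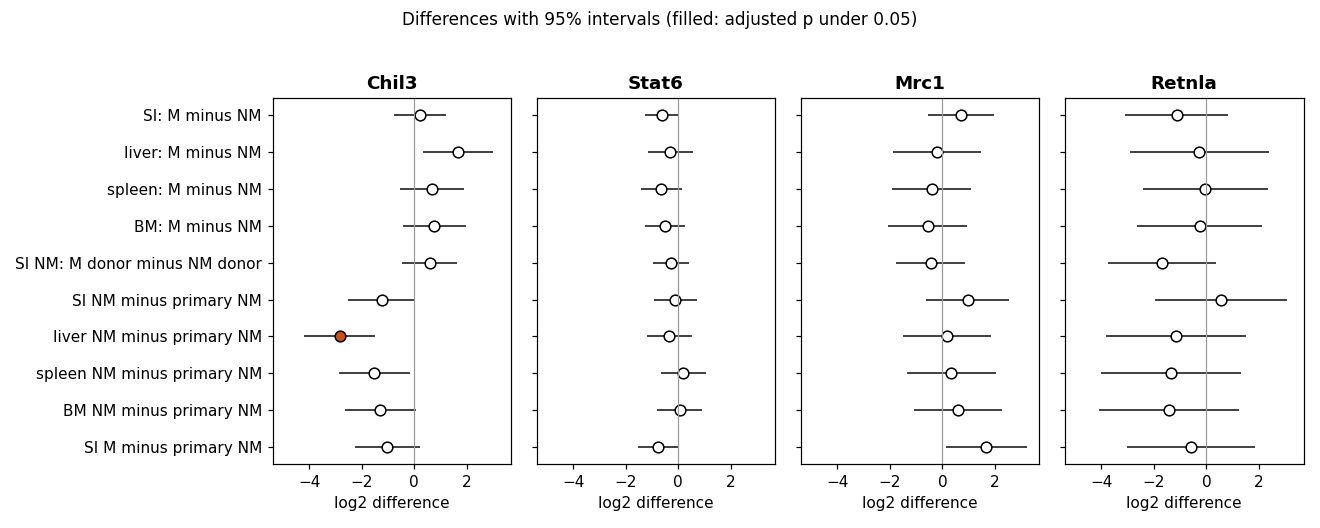
Log2 difference of each gene (x axis) with its 95% interval in 10 comparisons (rows), as fitted by limma over 33 libraries; filled points have an adjusted p under 0.05. Of these 40 differences only that of Chil3 between liver and primary monocytes (-2.84) was filled, and the intervals of Retnla were the widest.

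Tested over the 4 organs at once, none of the 4 genes passed in non-manipulated recipients (Chil3 adjusted p = 0.13, the lowest of the 4; 8.77% of the 57 genes passed) or in manipulated recipients (Mrc1 adjusted p = 0.064, the lowest; 28.1% passed). In the other 6 pairs of organs none of the 4 was called. The share of the 57 genes called was 7.02% for non-manipulated small intestine against spleen, 12.3% against BM and 0% for spleen against BM, and 5.26% for manipulated liver against spleen, 7.02% against BM and 0% for spleen against BM. Between spleen and BM 1 gene had an unadjusted p under 0.05 in non-manipulated and 2 in manipulated recipients, edgeR called 0 and DESeq2 1 in each.

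Other genes of the programme were described from a list. Of 24 listed alternative activation and regulatory genes 8 were measured, Arg1, Ccl22, Il10, Il10ra, Irf4, Tgfb1, Trem2 and Vegfa. In the manipulated against the non-manipulated small intestine 2 rose, 0 fell and 6 did not pass, with a median difference of -0.69 against -0.01 over all 57 genes, of which 33.3% were called. Arg1 rose by 6.44 ± 1.11 (adjusted p = 9.4e-05) and Il10, the anti-inflammatory cytokine, by 1.88 ± 0.42 (adjusted p = 0.0015). Libraries 3 and 4 of the manipulated group (17.94 and 17.22) enlarged the Arg1 difference, and its size without them is not reported here. Arg1 in libraries 1, 2 and 5 (14.01, 12.80 and 12.50) also lay above the non-manipulated group (7.82 to 9.21). Of 11 measured classical activation genes 5 rose and 2 fell, with a median of 1.18. In liver, spleen and BM after manipulation 0 of the 8 and 0 of the 11 passed, where 0%, 0% and 1.75% of the 57 genes did.

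Over the 33 libraries Pearson's r between any pair of the 4 genes lay between -0.14 and 0.10 and Spearman's rho between -0.30 (Retnla and Stat6) and 0.39 (Retnla and Mrc1), as a description over libraries that share groups and scaling. The genes most like Stat6 were the adaptor Card9 (r = 0.74), the chemokine receptor Ccr2 (0.70) and the fractalkine receptor Cx3cr1 (0.70). Those most like Mrc1 were Il23a (0.59), Cxcl1 (0.54) and Arg1 (0.47), and without the library of highest Mrc1 these were 0.40, 0.41 and 0.30. That left library 3 of the manipulated small intestine in, and values without libraries 3 and 4 together are not reported here. Spearman's rho with Mrc1 over all 33 libraries was 0.60 for Il23a, 0.42 for Cxcl1 and 0.13 for Arg1. Chil3 was most like Traf6 (0.50), the monocyte marker Ly6c1 (0.37) and Itgb7 (0.32, and 0.08 without the library farthest from the Chil3 median). Retnla was most like Tlr2 (0.34), Tnf (0.24) and Cd86 (0.23), and without library 4 of the non-manipulated small intestine these were 0.55, 0.39 and 0.22.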

How the data were processed

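Barcodes of 67 panel genes and 5 house-keeping genes were counted by nCounter after reverse transcription and gene-specific pre-amplification of sorted cells. The authors deposited a raw-data table in which 15 libraries hold counts and 18 libraries hold a signal, namely counts multiplied by a constant per lane of up to 4, for a reason not given in the sources used here. In 5 of these libraries the control probes were multiplied too. The constant was divided out, and 1141 of 1141 values became whole within 0.002. The deposited series matrix holds a score per gene, the raw value times 1 factor per lane, and was used as an alternative only.

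Recovered counts were divided by the geometric mean of Actb, Gapdh and Rpl19, and log2(value + 1) was tested with limma 3.58.1 in R, two-sided, in 1 fit over all 33 libraries with a mean per group, Benjamini-Hochberg adjustment over 57 genes (all with counts above background in at least 2 libraries) and a threshold of 0.05. Because of the multiplied lanes, edgeR and DESeq2 on recovered counts were alternatives only. The script was checked on simulated data. Transcript identifiers were matched to RefSeq names for 69 of 72 genes and symbols for 3. The 4 genes were named in every comparison, of the lists the genes that passed (up to 5 a list), and the 3 genes with the highest r for each. Genes and lists were chosen with earlier results of these data known. Mouse numbers were checked for pairing: in 5 of 18 comparisons, all among liver, spleen and BM, there were 3 same-numbered pairs that all deviated together (r from 0.17 to 0.88). In 3 more, all with liver, both of only 2 pairs did, which is too few to call them paired. The labels name no shared batch. By their titles, libraries of 1 group come from separate mice. Alternatives covered scaling, filter, pseudocount, background, test, block and left-out libraries. Overlap of group ranges and direction within same-numbered pairs were read for the 4 genes only, so that they stand without a share of the 57 genes. Values of some listed genes are not reported here.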

Additional observations from a re-analysis of the deposited data

Results flagged for a closer look

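Within groups of 4 or 5 libraries, 3 of 12 groups of values held 1 library far from the rest by Dixon's test, which chance gives in about 1 of 20, and all 3 were in the non-manipulated small intestine. Retnla in library 4 was 12.85 against 5.76 in the nearest library, and the Retnla comparisons without it stand beside them above. Stat6 in library 2 was 14.13 against 13.66 in the nearest, and without it the difference between manipulated and non-manipulated small intestine was -0.52 (limma adjusted p = 0.24). Chil3 in library 1 was 17.15 against 15.97 in the nearest, and without it the difference was 0.53.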

How the results depend on the processing

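The number of the 4 genes past the threshold was recomputed under each alternative for 26 comparisons, and 622 of 695 recomputed numbers equalled the reported one. The filter alternatives kept all 57 genes, so that their numbers equal the reported ones by construction. They are also among the alternatives counted for single genes above. The reported numbers are 1 for entry into liver and for manipulated small intestine against spleen and against BM, and 0 elsewhere. The 1 for entry into liver became 0 with only the compared groups and with the methods' t-test. Both others became 0 with TMM factors, total counts, a house-keeping mean without Actb or Rpl19, the series matrix, the adjusted methods' t-test, only the compared groups, the replicate block and without libraries 3 and 4 of the manipulated small intestine together, and that against BM also with background subtraction and with a pseudocount of 32. With DESeq2 size factors Mrc1 did not pass in either (1.17 and 0.95), and Stat6 passed in both. With the replicate block it was 1.58 against spleen and 1.47 against BM. The mouse numbers do not pair these groups, and the replicate block changed no other number of the 4 genes.

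A reported 0 became 1 under edgeR in 9 comparisons. Retnla passed in 6 of them (-4.67 between manipulated and non-manipulated small intestine, adjusted p = 0.0014), and DESeq2 gave it no adjusted p in this comparison. It became 1 under the DESeq2 test in 3 comparisons of the manipulated small intestine through Mrc1, under another scaling in 4, under the unadjusted methods' t-test in 6 (Stat6 in the small intestine also after adjustment), and with the multiplier as a block for entry into manipulated small intestine. It became 2 for entry into manipulated small intestine under TMM factors, DESeq2 size factors and total counts. Leaving out 1 library gave 0 to 1.

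Of the log2 differences printed, some turned sign. Chil3 in manipulated against non-manipulated small intestine was -0.00199 with total counts and ran from -0.058 to 0.53 with 1 library left out. Stat6 on the series matrix turned in liver (0.063), in the difference of changes (0.19) and between donors (0.35). Mrc1 turned without libraries 3 and 4 of the manipulated small intestine, an alternative chosen after seeing the data (-0.54, -0.15 for the difference of changes and -0.10 against manipulated donors). With 1 library left out, Retnla ran from -1.81 to 0.71 between manipulated and non-manipulated small intestine, from -2.38 to 0.15 between donors and from -1.29 to 1.75 for entry into the small intestine. The last, 0.56 as fitted, was -0.14 with TMM factors, -0.30 with DESeq2 size factors, -1.43 with the replicate block and -0.63 without the first primary library. The cause was not tested. On the series matrix the median of all 57 genes in manipulated against non-manipulated small intestine was 0.52 instead of -0.01. Mrc1 and Retnla lie near background, and differences between their low groups were not detectable at this depth.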
